A study of Mus musculus with 6 samples.

Results

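The genes described here are the 5 subunits of the transcription factor NF-kB (Nfkb1, Nfkb2, Rel, Rela and Relb) and 5 genes that NF-kB induces and that feed back on it (Nfkbia, Nfkbiz, Tnfaip3, Bcl3 and Birc3), in brain endothelial cells of mice given a convulsant. The 10 genes were found by matching their symbols to the Ensembl identifiers of the count matrix, 1 row each among 53465 genes, and all 10 passed the filter on low counts with 13768 genes tested. One group had been injected with pentylenetetrazol (PTZ), which blocks GABA-A receptors and provokes seizures, and the other with phosphate-buffered saline (PBS). There were 3 libraries of each, numbered 1, 2 and 4. All mice, PTZ and PBS alike, were males of 8 to 12 weeks with the genotype tie2-Cre; ai9; rpl22HA/HA, and cortex was the tissue. Tie2 drives Cre in endothelium and also in part of the blood lineage, ai9 marks cells that have had Cre with a fluorescent protein, and Rpl22-HA tags their ribosomes. The sources used here give neither the dose of PTZ nor the time to collection, and the labels do not say that libraries came from separate animals, so p-values measure the spread between libraries, which may be technical.

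NF-kB is a family of dimers that wait in the cytoplasm bound to inhibitors of the IkB family. Signals from cytokine and pattern receptors activate the IKK kinases, which mark IkB for destruction, and the released dimers enter the nucleus and bind kappaB sites. Among the genes switched on are the inhibitors themselves, so that the response limits its own length, and in endothelium it also includes leukocyte adhesion molecules and chemokines.

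RefSeq promoters of 300 bases (GRCm38.p6) were at hand for 7 of the 10 genes, and both strands were searched for kappaB letters. The degenerate consensus was GGGRNNYYCC (R is A or G, Y is C or T, N is any base). The other form, GGGNNTTTCC, fixes more bases but takes any base after GGG, so not all its matches need match the consensus. The consensus matched in 5 of the 7 genes (Nfkb2, Rel, Nfkbia, Tnfaip3 and Bcl3) and the other form in 4 (Nfkb2, Rel, Nfkbia and Tnfaip3). Of all 27025 genes in the table, 9.55% had a promoter with the consensus and 1.89% one with the other form (8.46% and 1.63% of its 32851 promoters). No match was found in the promoters of Rela and Birc3, which says only that these letters are not in those windows. A match is not a binding site by itself. Windows of 165 bases, from 150 bases before the start of transcription to its first 15 bases, are shown for the feedback genes with a match, since their levels make up much of the results below. They run 5′ to 3′ on the minus strand, with the matches in capitals, at chr12:55492633-55492797 for Nfkbia, chr10:19015396-19015560 for Tnfaip3 and chr7:19822741-19822905 for Bcl3.
Nfkbia: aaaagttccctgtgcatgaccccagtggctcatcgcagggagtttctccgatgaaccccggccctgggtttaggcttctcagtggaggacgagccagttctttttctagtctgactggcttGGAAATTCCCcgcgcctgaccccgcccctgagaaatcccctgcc
Tnfaip3: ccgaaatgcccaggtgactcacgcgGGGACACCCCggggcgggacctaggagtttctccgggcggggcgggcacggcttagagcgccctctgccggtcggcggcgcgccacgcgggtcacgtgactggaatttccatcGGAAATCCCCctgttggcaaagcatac
Bcl3: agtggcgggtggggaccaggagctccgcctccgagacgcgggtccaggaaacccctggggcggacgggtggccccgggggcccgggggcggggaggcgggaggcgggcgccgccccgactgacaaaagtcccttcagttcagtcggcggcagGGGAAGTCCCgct

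Read on the opposite strand, the Nfkbia match is GGGAATTTCC, beginning 29 bases before the start. The second match of Tnfaip3, 12 bases before the start, reads GGGGATTTCC on the opposite strand, the same 10 letters as a match of Rel 91 bases before its start. Nfkb2 held GGGGCTTTCC 11 bases before its first listed start. All 10 genes are annotated as protein-coding (GENCODE M21, GRCm38). The subunit genes lie at chr3:135584655-135691547 (Nfkb1, minus strand), chr19:46304320-46312385 (Nfkb2, plus), chr11:23736847-23770970 (Rel, minus), chr19:5637483-5648130 (Rela, plus) and chr7:19606217-19629438 (Relb, minus). The feedback genes all lie on the minus strand, at chr12:55489410-55492647 (Nfkbia), chr16:55811375-55838899 (Nfkbiz), chr10:19000910-19015657 (Tnfaip3), chr7:19808462-19822770 (Bcl3) and chr9:7848699-7873186 (Birc3). Nfkb2 shares exon bases with Psd (299 bases) and a noncoding RNA (531 bases) on the other strand, and Bcl3 with an antisense RNA (161 bases). No source used here gives the strand setting of the counting, so reads in those stretches cannot be assigned with certainty.

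Gene counts summed to 11691668 to 15406967 per library in PTZ and 11107481 to 14932860 in PBS. Each of 15 endothelial markers was measured, and their summed level was 15506 to 28026 CPM (counts relative to library size after TMM scaling) in PTZ and 15856 to 23058 CPM in PBS. RNA of other cells was present: the 14 markers of microglia and myeloid cells summed to 2085 to 3180 CPM in PTZ and 3223 to 3850 CPM in PBS, and the 10 of neutrophils to 86.9 to 405 CPM in PTZ and 224 to 584 CPM in PBS. All 14 microglia and myeloid genes had a negative log2 fold change of PTZ over PBS, 3 of them at an unadjusted p under 0.05 in edgeR. The 12 mural cell markers summed to 347 to 1107 CPM in PTZ and 203 to 566 CPM in PBS. NF-kB genes are used by all these cells, their part in the values below was not tested, and in bulk RNA fewer cells of a type and less RNA per cell cannot be told apart. PBS replicate 2 stood apart from the other PBS libraries in most of the genes described here, so fold changes of the members, and counts for the pathway lists, are also given without it.

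No NF-kB gene passed the test between PTZ and PBS. In edgeR's quasi-likelihood test with Benjamini-Hochberg adjustment, 0 of the 10 members and 0 of 13768 genes (0%) passed the adjusted threshold of 0.05; the lowest value reached by any gene was 0.283. DESeq2 called 76 genes and limma-voom 1, none of them a member. At an unadjusted p under 0.05, 1 member was higher in PTZ (Birc3) and 0 lower, where 3.83% of all genes tested were higher and 3.38% lower. Of the members, 6 had a positive log2 fold change of PTZ over PBS and 4 a negative one. Their median was 0.07, beside 0.03 over all genes tested.

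**Figure D1:**
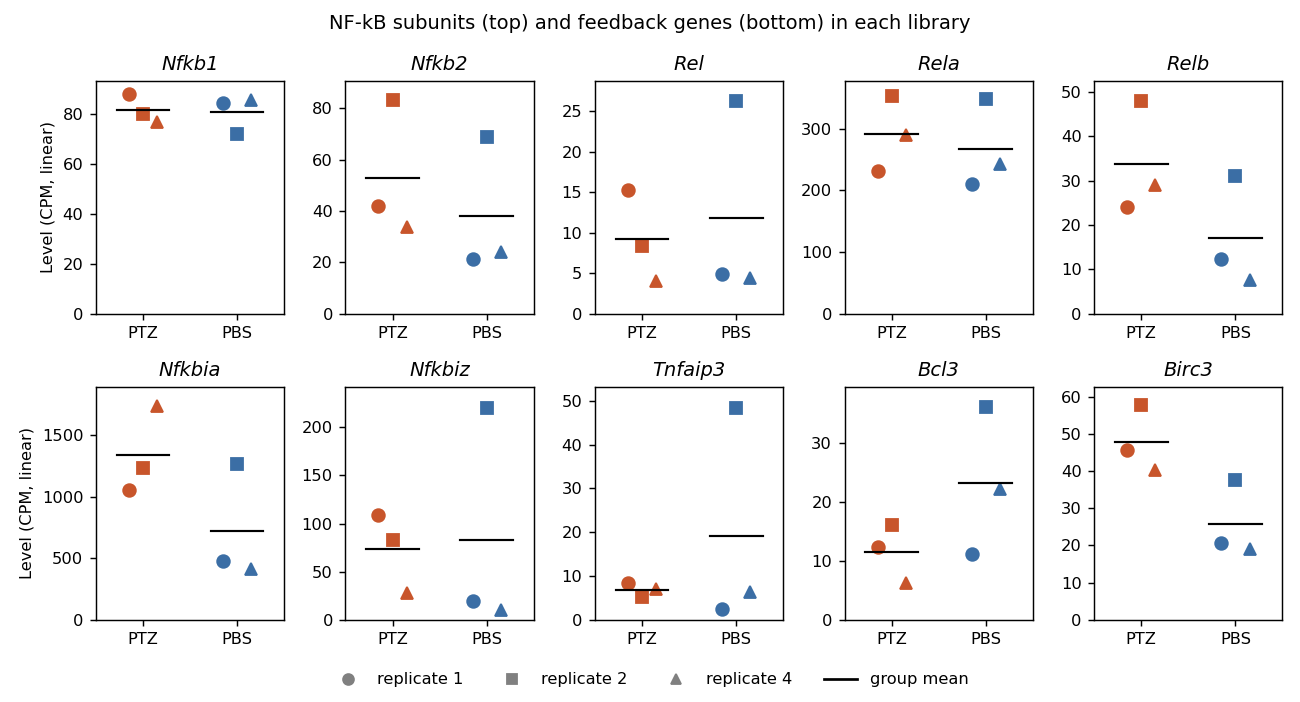
Level of each NF-kB gene in CPM, with PTZ libraries left and PBS libraries right; symbols give the replicate number and lines the group means (n = 3 each). PBS replicate 2 is the highest PBS library for every gene shown except Nfkb1, and for Rel, Nfkbiz, Tnfaip3 and Bcl3 the highest of all 6.

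Among the subunits, Rela and Nfkb1 differed least. Rela encodes p65, the subunit with the strongest activating domain in the classical dimer. It stood at 232, 353 and 290 CPM in PTZ libraries 1, 2 and 4, against 210, 348 and 243 CPM in PBS libraries 1, 2 and 4. In both groups replicate 2 was the highest and replicate 1 the lowest, and the groups overlapped (log2 fold change 0.13, SE 0.26; 0.34 without PBS replicate 2). Nfkb1 encodes p105, which is processed to p50, the usual partner of p65. Its levels were 87.9, 79.8 and 76.7 CPM in PTZ and 84.3, 71.7 and 85.6 CPM in PBS, an SD of 7.05% of the mean in PTZ and 9.49% in PBS. Nfkb1 was the steadiest member, with interleaved groups and a log2 fold change of 0.02 (SE 0.20), whose sign turned with the scaling (-0.06 with the authors' own factors).

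Relb and Nfkb2 belong together in the alternative pathway, in which the p100 protein made from Nfkb2 holds RelB in the cytoplasm until it is cut to p52. Relb stood at 24.0, 47.9 and 29.1 CPM in PTZ libraries 1, 2 and 4, against 12.4, 31.1 and 7.53 CPM in PBS libraries 1, 2 and 4. PBS replicate 2 lay above PTZ replicates 1 and 4, so the groups overlapped. The log2 fold change of Relb was 0.99 (SE 0.49, edgeR adjusted p = 0.700), and 1.73 (SE 0.43) without PBS replicate 2. Nfkb2 stood at 41.8, 83.2 and 33.9 CPM in PTZ and 21.4, 68.8 and 24.2 CPM in PBS. Its log2 fold change was 0.48 (SE 0.47), and 1.19 (SE 0.41) without PBS replicate 2. For both genes replicate 2 was the highest library of its own group.

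Rel encodes c-Rel, best known from lymphocytes and myeloid cells. Its level varied between libraries: 15.3, 8.31 and 3.99 CPM in PTZ libraries 1, 2 and 4, against 4.86, 26.3 and 4.37 CPM in PBS libraries 1, 2 and 4. The highest and lowest of the 6 libraries were PBS replicate 2 and PTZ replicate 4. The log2 fold change was -0.36 (SE 0.74) and turned to 0.96 without PBS replicate 2. The lymphocyte markers summed to 61.7 to 109 CPM in PTZ and 83.4 to 111 CPM in PBS, and their part in the level of Rel was not tested.

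Birc3 was the only member whose groups did not overlap. It encodes cIAP2, a ubiquitin ligase of the tumour necrosis factor receptor complex that also keeps the kinase of the alternative pathway in check. Birc3 stood at 45.5, 57.6 and 40.3 CPM in PTZ libraries 1, 2 and 4, against 20.5, 37.5 and 19.0 CPM in PBS libraries 1, 2 and 4. Every PTZ library exceeded every PBS library, the narrowest gap being that between PTZ replicate 4 and PBS replicate 2. This held for 1 of 10 members and for 7.3% of all genes tested, and the reverse for 0 members and 7.04% of genes. Its log2 fold change was 0.90 (SE 0.31), with an unadjusted p of 0.0157 and an adjusted p of 0.648 in edgeR, and was 1.25 (SE 0.29) without PBS replicate 2.

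Nfkbia encodes IkB-alpha, the inhibitor whose resynthesis ends most NF-kB responses. It stood at 1057, 1234 and 1737 CPM in PTZ libraries 1, 2 and 4, against 482, 1267 and 415 CPM in PBS libraries 1, 2 and 4. PBS replicate 2 sat within the PTZ range, and the other PBS libraries were below every PTZ library. The log2 fold change of Nfkbia was 0.90 (SE 0.43), with an adjusted p of 0.700 in edgeR, and 1.56 (SE 0.36) without PBS replicate 2. Of the marker lists, mural and fibroblast genes had the highest median log2 fold changes of PTZ over PBS, 1.18 and 1.35. Astrocyte, neuron and endothelial markers were higher on median too, at 0.61, 0.36 and 0.15. In PTZ replicate 2 the mural and fibroblast sums were 347 and 87.6 CPM, the lowest of the PTZ libraries. The part of these cells in the values of Nfkbia and Birc3 was not tested.

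Nfkbiz encodes IkB-zeta, a nuclear cofactor needed for a second wave of NF-kB targets. It stood at 109, 83.1 and 28.3 CPM in PTZ libraries 1, 2 and 4, against 19.9, 220 and 10.5 CPM in PBS libraries 1, 2 and 4. A single library, PBS replicate 2, was above all others, while PBS replicates 1 and 4 were below all PTZ libraries. Its log2 fold change was -0.18 (SE 0.91) and became 2.23 (SE 0.56) without PBS replicate 2.

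Tnfaip3 encodes A20, an enzyme that edits ubiquitin chains on receptor complexes and so stops signalling upstream of IKK. It was low in 5 libraries, with 8.46, 5.15 and 6.99 CPM in PTZ libraries 1, 2 and 4 and 2.55 and 6.33 CPM in PBS libraries 1 and 4. PBS replicate 2 held 48.3 CPM, from 491 reads where the other libraries had 41 to 116. The log2 fold change of -1.46 (SE 0.86, edgeR adjusted p = 0.742) rests on that library and was 0.60 (SE 0.68) without it.

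Bcl3, which encodes a nuclear IkB protein that binds p50 and p52 dimers, was the member with a negative fold change in all 13 alternative settings. It stood at 12.3, 16.0 and 6.30 CPM in PTZ libraries 1, 2 and 4, against 11.1, 36.0 and 22.2 CPM in PBS libraries 1, 2 and 4. The groups overlapped through PBS replicate 1. The log2 fold change was -0.999 (SE 0.48, edgeR adjusted p = 0.700), and -0.55 (SE 0.52) without PBS replicate 2. Microglia and neutrophil markers were also lower on median in PTZ (log2 fold changes -0.43 and -0.95). Their part in this value was not tested.

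PBS replicate 2 stood apart from the other PBS libraries in these genes. It was the highest PBS library for 9 of 10 members, as for 34.5% of all genes tested, and the highest of all 6 libraries for 4 of 10, as for 11.6% of genes. Nfkbiz was 11.0 and 20.8 times its level in PBS replicates 1 and 4, and Tnfaip3 18.9 and 7.64 times. By the log2 ratio of PBS replicate 2 to the mean of the other PBS libraries (CPM + 1), Nfkbiz ranked at the 99.96 percentile of all genes tested, Tnfaip3 at 99.93 and Rel at 99.75. Nfkb2, Relb and Nfkbia followed, between 98.55 and 98.77, then Bcl3 at 95.98, Birc3 at 93.87 and Rela at 87.61. Nfkb1 was the exception, at 34.3. The marker sums of PBS replicate 2 were not the highest of the PBS libraries for microglia and myeloid cells (3223 CPM) or neutrophils (528 CPM), and were the highest for endothelial cells (23058 CPM) and neurons (448 CPM). In PTZ replicate 2 the last 2 sums were high as well, at 28026 and 462 CPM.

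**Figure D2:**
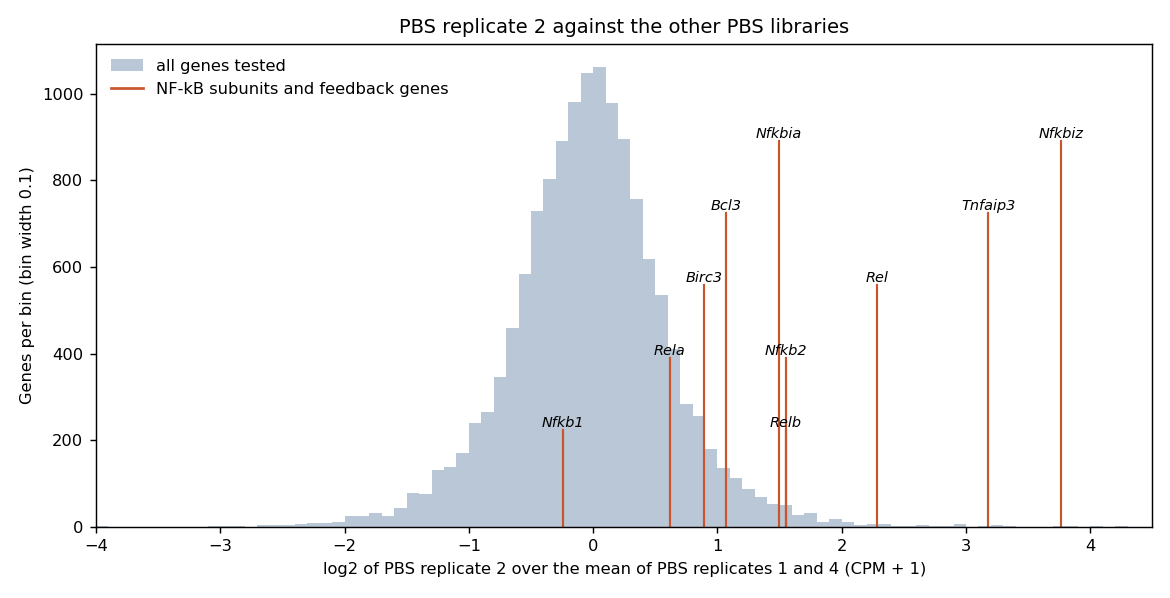
Histogram over all 13768 genes tested of the log2 ratio of PBS replicate 2 to the mean of PBS replicates 1 and 4, each as CPM + 1, with a line for each NF-kB gene (line height carries no value). Nfkbiz, Tnfaip3 and Rel lie in the far right tail, between 2.28 and 3.77, and Nfkb1 lies left of 0.

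Without PBS replicate 2, 8 of the 10 members had fold changes above 0, and their median log2 fold change was 1.07 beside 0.03 for all genes. This comparison sets 3 PTZ libraries against 2 PBS libraries, and the library left out was one that stands apart in the same genes. The values of the comparison therefore describe the other 5 libraries and are no independent support. It also keeps PTZ replicate 2, the library of equal number, which was the highest PTZ library for Nfkb2, Rela, Relb, Bcl3 and Birc3. All PTZ libraries were then above both PBS libraries for 5 members (Nfkb2, Relb, Nfkbia, Nfkbiz and Birc3), where 13.5% of all genes tested did so, and below both for 0 members, where 13.6% of genes did so. The same 5 members had an unadjusted p under 0.05 in edgeR, all higher in PTZ, where 3.84% of genes were higher and 3.95% lower. No member passed after adjustment: the adjusted p was 0.490 for Relb, Nfkbia, Nfkbiz and Birc3 and 0.561 for Nfkb2. With PTZ replicate 2 left out instead, the median log2 fold change of the members was -0.055.

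**Figure D3:**
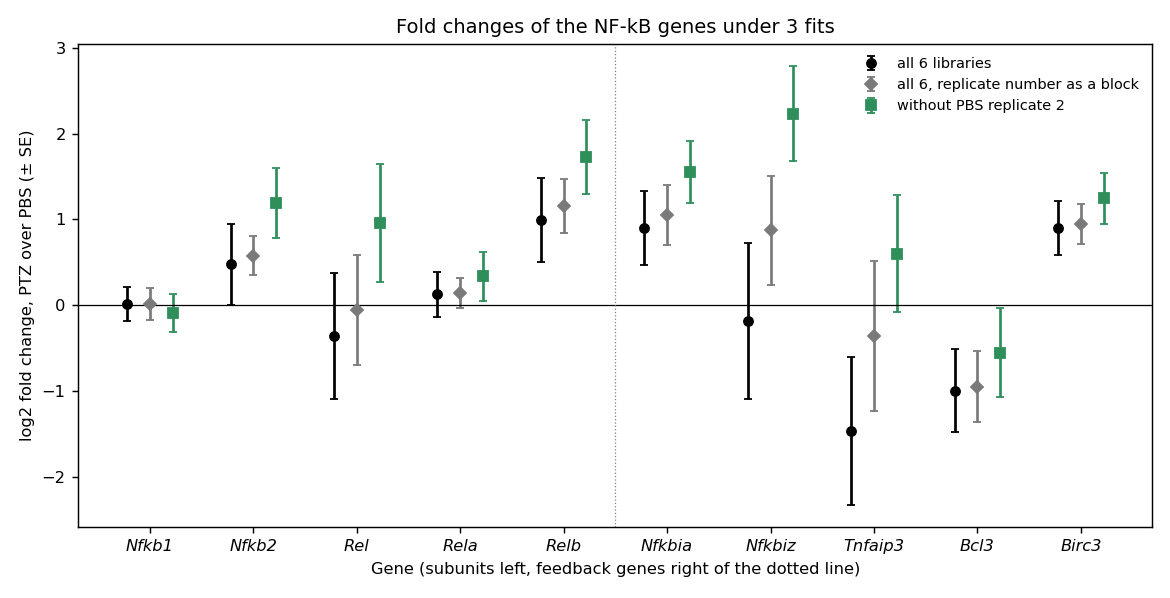
Log2 fold change of PTZ over PBS with its SE for each NF-kB gene in edgeR, from all 6 libraries, from all 6 with replicate number as blocking term, and without PBS replicate 2. Relb, Nfkbia and Birc3 are above 0 in each fit and Bcl3 below, while Rel, Nfkbiz and Tnfaip3 move from below 0 to above it when PBS replicate 2 is left out.

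Libraries of equal number were also set side by side, since deviations from the group means correlated between equal numbers. In pair 1 all 10 members were higher in PTZ (median log2 ratio 1.02), where 52.7% of genes were. In pair 2 it was 5 of 10 (median -0.01, 50.5% of genes), and in pair 4 it was 7 of 10 (median 0.36, 49.5% of genes). Birc3 and Relb were higher in PTZ in every pair, by log2 ratios of 1.15, 0.62 and 1.09 for Birc3 and 0.95, 0.62 and 1.95 for Relb in pairs 1, 2 and 4. Nfkb2 (0.97, 0.27 and 0.49) and Rela (0.15, 0.02 and 0.25) were also higher in every pair, Rela by little. Nfkbia was level in pair 2 at -0.04, against 1.13 in pair 1 and 2.06 in pair 4. Tnfaip3 went both ways, at 1.73, -3.23 and 0.14.

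With the number as a block, edgeR gave 5 members at an unadjusted p under 0.05, in place of 1. Nfkb2, Relb, Nfkbia and Birc3 were higher in PTZ and Bcl3 lower, where 5.59% of all genes tested were higher and 5.31% lower. Birc3 had the smallest adjusted p of the 10 in this fit, 0.273, and its log2 fold change was 0.95 (SE 0.23). Relb was at 1.16 (SE 0.31) and Nfkbia at 1.06 (SE 0.35). The sign of Nfkbiz turned to 0.87 (SE 0.63), while Tnfaip3 was at -0.36 (SE 0.87) and Rel at -0.06 (SE 0.64). The median log2 fold change of the members was 0.36 in this fit, beside 0.02 over all genes tested.

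**Figure D4:**
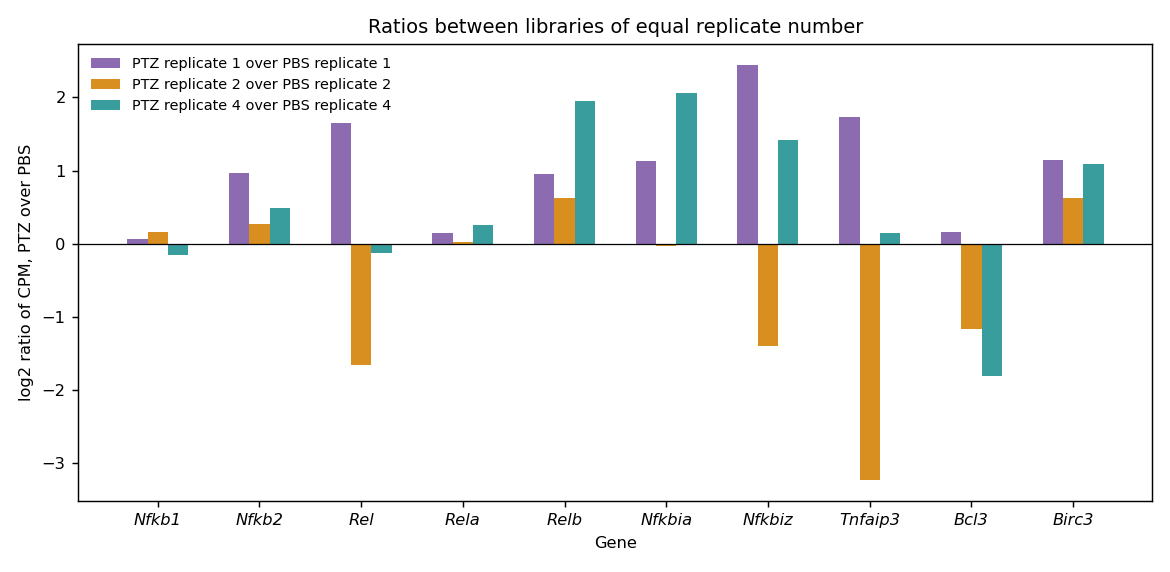
Log2 ratio of CPM in each PTZ library over the PBS library of the same number, per NF-kB gene, with 1 bar for each pair. Pair 1 is above 0 for every gene, and pair 2 is far below 0 for Rel, Nfkbiz, Tnfaip3 and Bcl3.

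Levels between genes were compared as CPM per kilobase of annotated exon, a scale that counts all annotated exons of a gene and so understates genes with long unused ones. Nfkbia led at 834 ± 219 in PTZ and 448 ± 294 in PBS (SD, n = 3 each), and Rela came next at 94.9 ± 19.6 in PTZ and 87.0 ± 23.4 in PBS. Their ranges overlapped neither each other nor those of the other members. Nfkbiz, Nfkb2, Birc3, Relb and Nfkb1 followed in PTZ, with means of 14.6, 11.6, 9.55, 8.66 and 6.75, and the ranges of neighbours in this order overlapped. Bcl3 averaged 4.67, and its highest PTZ library (6.48) reached into the range of Nfkb1. Rel at 1.23 and Tnfaip3 at 0.950 were the lowest and overlapped each other, below the range of Bcl3. In PBS the order below Rela was Nfkbiz, Bcl3, Nfkb2, Nfkb1, Birc3, Relb, Tnfaip3 and Rel, with means of 16.6, 9.33, 8.32, 6.68, 5.13, 4.38, 2.64 and 1.59 and overlapping neighbours.

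Genes with the most similar profile were looked up for the members by the root mean square difference of log2(CPM + 1) over the 6 libraries, each gene centred on its own mean, among 10093 other genes with a mean of at least 5 CPM. For Nfkbia they were Ifrd1, Plk3 and Rnaseh2c, at differences of 0.263 to 0.276 where Nfkbia itself varied by 0.758. For Tnfaip3 they were Nuak2, Csf1 and Irf1 (0.498 to 0.585, own variation 1.17). For Nfkbiz they were Psd, Rab11fip3 and Egr1 (0.568 to 0.615, own variation 1.48), where Psd is the gene that shares exon bases with Nfkb2. For Relb they were Ring1, Fam20c and Nod2 (0.227 to 0.251), and for Birc3 2700081O15Rik, Slc30a1 and Bach1 (0.0926 to 0.104). The closest gene was Dab2 for Nfkb1 (0.0412), Tpt1-ps3 for Nfkb2 (0.129), Thsd7a for Rel (0.400) and Robo4 for Rela (0.0643).

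The rest of the pathway was read from lists of its parts, whose counts at an unadjusted p under 0.05 in edgeR stand beside 3.83% of all genes tested higher and 3.38% lower in PTZ (3.84% and 3.95% without PBS replicate 2, 5.59% and 5.31% with the replicate block). Other IkB proteins had 0 of 4 genes past it, with or without PBS replicate 2 or the block. Nfkbie, which encodes IkB-epsilon, was at 3.28, 7.42 and 8.61 CPM in PTZ libraries 1, 2 and 4, against 3.92, 25.9 and 1.28 CPM in PBS libraries 1, 2 and 4. Nfkbid, a nuclear IkB gene, stood at 2.55, 0.693 and 0.998 CPM in PTZ, against 0.809, 13.1 and 0.829 CPM in PBS. Both were again highest in PBS replicate 2, and both fold changes were negative with it and positive without it (-0.68 and 1.28 for Nfkbie, -1.77 and 0.75 for Nfkbid). Ankrd42, also on the list, stood at 0.365, 1.58 and 2.56 CPM in PTZ, against 0.374, 1.08 and 0.829 CPM in PBS. Its log2 fold change was positive with PBS replicate 2 (0.99) and without it (1.30). That library was the highest PBS library for all 4 genes and the highest of all 6 for 2, beside 34.5% and 11.6% of all genes tested.

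The IKK complex and its upstream kinases had 0 of 11 tested genes at an unadjusted p under 0.05 and a median log2 fold change of 0.15. The count was 1 higher and 1 lower with the replicate block, 1 higher without PBS replicate 2 or PTZ replicate 2, and 1 lower without PTZ replicate 1. Ikbkb, the catalytic subunit of IKK that acts on IkB-alpha, stood at 137, 154 and 148 CPM in PTZ libraries 1, 2 and 4, against 112, 100.2 and 126 CPM in PBS libraries 1, 2 and 4, the PTZ libraries being the higher (fold change 0.38 on the log2 scale, SE 0.20). Map3k8, a kinase that acts in MAP kinase and NF-kB signalling, stood at 43.6, 32.5 and 32.4 CPM in PTZ and 56.5, 44.8 and 49.5 CPM in PBS (-0.48, SE 0.24). Here the PTZ libraries were the lower. All PTZ libraries were above all PBS libraries for 1 of the 11 genes and below for 1, where 7.3% and 7.04% of all genes tested did so. PBS replicate 2 was the lowest PBS library for both kinases.

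Of 18 ubiquitin ligases and adaptors, 2 were higher and 0 lower in PTZ at an unadjusted p under 0.05, with a median log2 fold change of 0.18, beside 3.83% and 3.38% of all genes. The count was 4 higher with the replicate block, 3 higher without PBS replicate 2, 1 without PBS replicate 4 and 0 without PBS replicate 1. It was 1 higher and 1 lower with the authors' scaling, and 2 higher and 1 lower without PTZ replicate 1 or PTZ replicate 2. The 2 genes of the main fit were Irak2 and Ticam1. Irak2, a kinase-like adaptor of interleukin-1 and Toll-like receptors, averaged 100.4 ± 4.88 CPM in PTZ, against 65.0 ± 15.6 CPM in PBS (SD, n = 3 each). Ticam1, the adaptor TRIF, averaged 23.2 ± 12.6 CPM in PTZ, against 11.2 ± 2.79 CPM in PBS. Of 15 other negative regulators, Irak3, which restrains the same receptors, was higher (47.4 ± 20.9 CPM in PTZ, 24.6 ± 5.98 CPM in PBS) and 0 were lower. Irak3 missed that threshold without PBS replicate 2, and the list had 0 genes past it without PBS replicate 4 or PTZ replicate 1, and 2 higher without PTZ replicate 4. Without PTZ replicate 2 the list had 0 higher and 1 lower, and with limma-voom it had 0 in either direction. The adjusted p in edgeR was 0.648 for Irak2, 0.690 for Ticam1 and 0.664 for Irak3. Of 14 receptor genes 0 passed in either direction, and the interleukin-1 receptor gene Il1r1 had the smallest p, with 229 ± 31.1 CPM in PTZ, against 168 ± 23.4 CPM in PBS. With the replicate block 2 receptor genes were higher at an unadjusted p under 0.05 in edgeR, Il1r1 and the Toll-like receptor partner Cd14. Cd14 then had the smaller p (edgeR adjusted p = 0.322). Without PBS replicate 2 the count was also 2, with Cd14 among them but not Il1r1 (edgeR unadjusted p = 0.236 for Il1r1).

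Ligands were scarce: 5 of 12 had enough reads to be tested, and Tnf, Il1a, Lta, Ltb, Il33, Tnfsf11 and Cd40lg were left out by the filter. Il1b was at 0.0730, 0.495 and 0 CPM in PTZ libraries 1, 2 and 4, against 1.74, 2.66 and 3.32 CPM in PBS libraries 1, 2 and 4. Each PTZ library was thus below each PBS library, at levels near the floor. Hmgb1, which encodes a nuclear protein that acts as a danger signal outside cells, was also lower in each PTZ library, averaging 471 ± 79.9 CPM in PTZ, against 736 ± 108 CPM in PBS. All PTZ libraries were below all PBS libraries for these 2 of the 5 tested ligands, where 7.04% of all genes tested did so. The adjusted p in edgeR was 0.637 for Il1b and 0.673 for Hmgb1. These 2 of the 5 tested were lower at an unadjusted p under 0.05 and 0 were higher; leaving out PTZ replicate 1, PBS replicate 2 or PBS replicate 4 left 1 lower. The microglia and neutrophil markers named above, which mark cells that make interleukin-1, were lower on median in the same libraries, and their part was not tested.

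Of 21 tested genes that are known targets of NF-kB in endothelium, 2 were higher and 4 lower in PTZ at an unadjusted p under 0.05, 0 passed after adjustment in edgeR, and the median log2 fold change was -0.09. Without PBS replicate 2 the split was 6 higher and 0 lower and the median 0.29, so the split and the median turned with that library. The 6 were Ccl2 and Ccl7, higher in both fits, with Cxcl1, Cxcl2, Icam1 and Csf3. Cxcl2 had 0 CPM in PBS replicates 1 and 4, and Csf3 had 0.498 and 0 CPM, so both rest on values at the floor. The 4 genes lower in the main fit (Ptgs2, Ier3, Cxcl10 and Irf1) kept a negative fold change. With the replicate block the split was 3 higher and 2 lower. The chemokine gene Ccl2 was at 22.9, 6.43 and 16.7 CPM in PTZ libraries 1, 2 and 4, against 0.872, 0.591 and 1.28 CPM in PBS libraries 1, 2 and 4 (log2 fold change 4.05, SE 0.64). Ccl7, another monocyte chemokine, had 83.5, 17.5 and 38.2 CPM in PTZ, against 9.34, 3.54 and 11.9 CPM in PBS (2.48, SE 0.58). For both chemokines PBS replicate 2 was the lowest library of all. Neither passed in edgeR (adjusted p = 0.283 for Ccl2 and 0.446 for Ccl7) or with the replicate block (edgeR adjusted p = 0.0802 for each). Both passed in DESeq2 (adjusted p = 3.88e-07 for Ccl2 and 0.00341 for Ccl7) and in edgeR with no filter on low counts (2.42e-06 for Ccl2 and 2.62e-07 for Ccl7). Ptgs2, the inducible cyclooxygenase, was at 10.9, 12.5 and 6.80 CPM in PTZ and 18.6, 55.6 and 19.0 CPM in PBS (-1.63, SE 0.47; -0.93 without PBS replicate 2), and passed with no filter (edgeR adjusted p = 0.0118).

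PBS replicate 2 was the highest PBS library for 12 of the 21 targets and the highest of all 6 for 9, against 34.5% and 11.6% of all genes. The following were singled out after their values were seen. Cxcl1, a neutrophil chemokine, was at 19.0, 36.0 and 3.68 CPM in PTZ libraries 1, 2 and 4, against 3.74, 335 and 2.71 CPM in PBS libraries 1, 2 and 4. Icam1, an adhesion molecule for leukocytes, was at 146, 345 and 42.2 CPM in PTZ, against 44.6, 651 and 43.9 CPM in PBS. Its order of libraries, with PBS replicate 2 first, then PTZ replicate 2 and then PTZ replicate 1, was shared by Cxcl1. The log2 fold change was -2.54 with and 2.57 without PBS replicate 2 for Cxcl1, and -0.47 with and 1.98 without it for Icam1. Vcam1 (1875 CPM), Csf1 (273 CPM) and Irf1 (249 CPM) also had their highest level in PBS replicate 2, where the highest PTZ library had 806, 49.2 and 72.9 CPM.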

How the data were processed

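The authors deposited raw read counts per Ensembl gene for 6 libraries, with 5 summary rows that name no gene (16.1% to 22.9% of reads), which were left out. Tools named in the submitters' processing notes, without roles, are TopHat2 2.1.1, CASAVA, edgeR and HTSeq; the build is GRCm38. A second set of deposited files holds a signal, the counts after division by a scaling factor of each library, used here only as an alternative scaling. With R 4.3.3, genes were kept by filterByExpr (minimum count 10, total 15), scaled by TMM and tested with edgeR 4.0.16 (glmQLFit, glmQLFTest; group as factor; 2-sided; Benjamini-Hochberg over 13768 genes; threshold 0.05). SE is the log2 fold change over the root of its F. DESeq2 1.42.0 and limma-voom (limma 3.58.1) were alternatives. The scripts were tested on simulated data. Coordinates and exon lengths are from GENCODE M21 (GRCm38).

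The numbers 1, 2 and 4 come from the titles. Deviations from group means correlated at 0.206, 0.266 and 0.263 within equal numbers, each over 0.1, which meets the rule set for pairing. The main test has no pair term. The fit with the replicate number as a block is an alternative, given for part of the results only. No 2 libraries of a group agreed within sampling noise (chi-square per degree of freedom 48.5 to 115). The lowest value of any pair was between the groups, for PBS replicate 2 and PTZ replicate 2 (33). Counts of 11107481 to 15406967 per library leave the spread between libraries (biological coefficient of variation 0.47) as the main error.

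The members and lists were chosen with earlier results of these data known. Named pathway genes are up to 3 per list with the smallest unadjusted p, described where their values bear on the members.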

Additional observations from a re-analysis of the deposited data

How the results depend on the processing

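No member passed the adjusted threshold under any of 13 alternatives. Of 130 member values 114 kept their direction, as did 268 of 273 for pathway genes, and Relb, Nfkbia, Birc3 and Bcl3 kept theirs under all 13. Genes called numbered 121 with no low-count filter, 76 with DESeq2 and 1 with limma-voom, and 0 to 8 with a library left out (8 without PBS replicate 2). At an unadjusted p under 0.05, 1 member was higher and 0 lower in the main edgeR fit. It was 3 higher and 0 lower with library totals, 1 and 1 with the authors' scaling and 3 and 2 with no filter. DESeq2 gave 3 higher and 1 lower, limma-voom 3 and 0, and the replicate block 4 and 1. With a library left out, 0 to 5 members were past it, 5 higher without PBS replicate 2, 2 lower without PBS replicate 1 and 1 lower without PTZ replicate 2. Shares over all genes are given above only for the main fit, the fit without PBS replicate 2 and the block. The other counts have no share to be set against. The members' median was -0.055 to 1.07 with a library left out, 0.36 with the replicate block and 0.37 with limma-voom. Log2 fold changes turned for Nfkb1 with the authors' scaling (-0.058) and no filter (-0.032), for Rel (0.059), Nfkbiz (0.95) and Nfkbie (0.41) with limma-voom, and for Nfkbiz (0.87) and Nfkbie (0.10) with the block. With each library left out in turn they spanned -0.089 to 0.057 for Nfkb1, -0.042 to 1.19 for Nfkb2, -0.94 to 0.96 for Rel, -0.068 to 0.34 for Rela, -0.73 to 2.23 for Nfkbiz, -1.99 to 0.60 for Tnfaip3, -2.50 to 0.75 for Nfkbid, -1.22 to 1.28 for Nfkbie and -0.22 to 1.51 for the receptor gene Cd14. Among the members that kept their direction, the spans were 0.61 to 1.73 for Relb and 0.59 to 1.56 for Nfkbia. They were 0.70 to 1.25 for Birc3 and -1.35 to -0.55 for Bcl3. The unadjusted p of Birc3 in edgeR was 0.063 without PBS replicate 1, 0.066 without PBS replicate 4 and 0.068 without PTZ replicate 2. The cause of these shifts was not tested. Depth limits Tnfaip3 and Rel most, with as few as 41 and 58 reads in a library.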

Other observations

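Among themselves the members fell into profiles of differing likeness over the 6 libraries. By the root mean square difference of centred log2(CPM + 1), the closest pair was Relb and Birc3 (0.349), with 26 of the genes tested closer to Relb. Closer genes were counted only from the gene named first in a pair, not from its partner. Nfkb1 and Rela came next (0.369), both varying little, with 5658 genes closer to Nfkb1, and then Relb and Nfkbia (0.372), with 35 closer to Relb. Nfkb2 and Birc3 differed by 0.380 and Nfkbia and Birc3 by 0.382. Rela was not close to Relb (0.647), with 9971 genes closer to Rela.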
